A study of Mus musculus with 10 samples.

Results

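Conventional type 1 dendritic cells (cDC1) are known by a small set of genes, of which 10 were followed here: Xcr1, Clec9a, Cadm1, Naaa, Ly75, Batf3, Itgae, Cd8a, Wdfy4 and Snx22. Each gene was given by name and read from the probe set with exactly 1 gene symbol and the highest mean over the 10 arrays. Of the 10 genes, 9 had such a probe set and all 9 passed the filter on low values, out of 22180 genes read this way and 13371 tested. The probe set for Clec9a, a receptor for actin filaments exposed on dead cells, also carries the symbol Clec1b, so Clec9a was not analysed here.

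The cells were splenic dendritic cells (DCs) selected by CD11c on magnetic beads, and the arrays were Affymetrix Mouse Gene 2.0 ST. They came from mice lacking both anaphylatoxin receptors of complement, C3ar1-/-C5ar1-/- (DKO), and from wild-type (WT) mice. DKO CpG (n = 3) and WT CpG (n = 3) DCs were isolated 4 h after an injection of 100 µg CpG, unmethylated DNA sensed by Tlr9. DKO unstimulated (n = 2) and WT unstimulated (n = 2) DCs came from mice that had received vehicle. The labels give no age, sex or strain background and do not say whether each array is a separate mouse, so the p-values measure only the spread between these samples, which may be technical.

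In the mouse spleen, cDC1 take up dying cells and present their antigens on MHC class I to CD8 T cells, a task called cross-presentation. Their development depends on the transcription factors Irf8 and Batf3, and they are the DCs that carry Xcr1, through which Xcl1 from NK and CD8 T cells attracts them. CD11c beads also retain cDC2 and other CD11c-bearing cells, so the values below are levels in a mixed isolate. In such bulk samples, fewer cells of a type and less RNA per cell cannot be told apart.

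The array medians ran from 5.50 to 5.56, so the deposited values are on a common scale. The arrays of one group correlated at r = 0.964 to 0.989 across genes. C5ar1, the receptor for C5a, measured 4.72 to 4.99 in DKO CpG DCs, against 5.51 to 7.32 in WT CpG DCs, and did not pass (adjusted p = 0.0732). C3ar1 measured 5.34 to 5.61 in DKO CpG DCs, against 6.14 to 6.59 in WT CpG DCs. The sources used here do not say where the probes of either gene lie relative to the deleted parts. Neither comparison checks a genotype label. Some arrays stood apart. Y-linked genes had signal in DKO unstimulated 1, DKO CpG 1 and DKO CpG 2 (a mean of at least 7.33) and were at most 3.68 in the other 7 arrays. DKO unstimulated 2 and DKO CpG 3 were low in splenic macrophage markers. They also had the lowest NK cell marker medians, centred per gene (-1.04 and -0.67, against -0.28 or above in the other arrays). Neutrophil markers were lower in DKO than in WT arrays on average.

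The 9 genes parted into those that were lower after CpG and those that were higher. In WT DCs, 5 of the 9 fell (Xcr1, Naaa, Snx22, Wdfy4 and Cadm1) and 2 rose (Ly75 and Batf3), while Itgae and Cd8a did not pass. Among all 13371 tested genes, 13.3% fell and 8.24% rose in this comparison. The median difference over the 9 genes was -0.72, against -0.04 over all tested genes. The test was limma over the 4 groups, with Benjamini-Hochberg adjustment over all tested genes and a call at an adjusted p under 0.05. All values are log2 intensities, all differences are log2 differences, and errors after differences are standard errors.

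**Figure D1:**
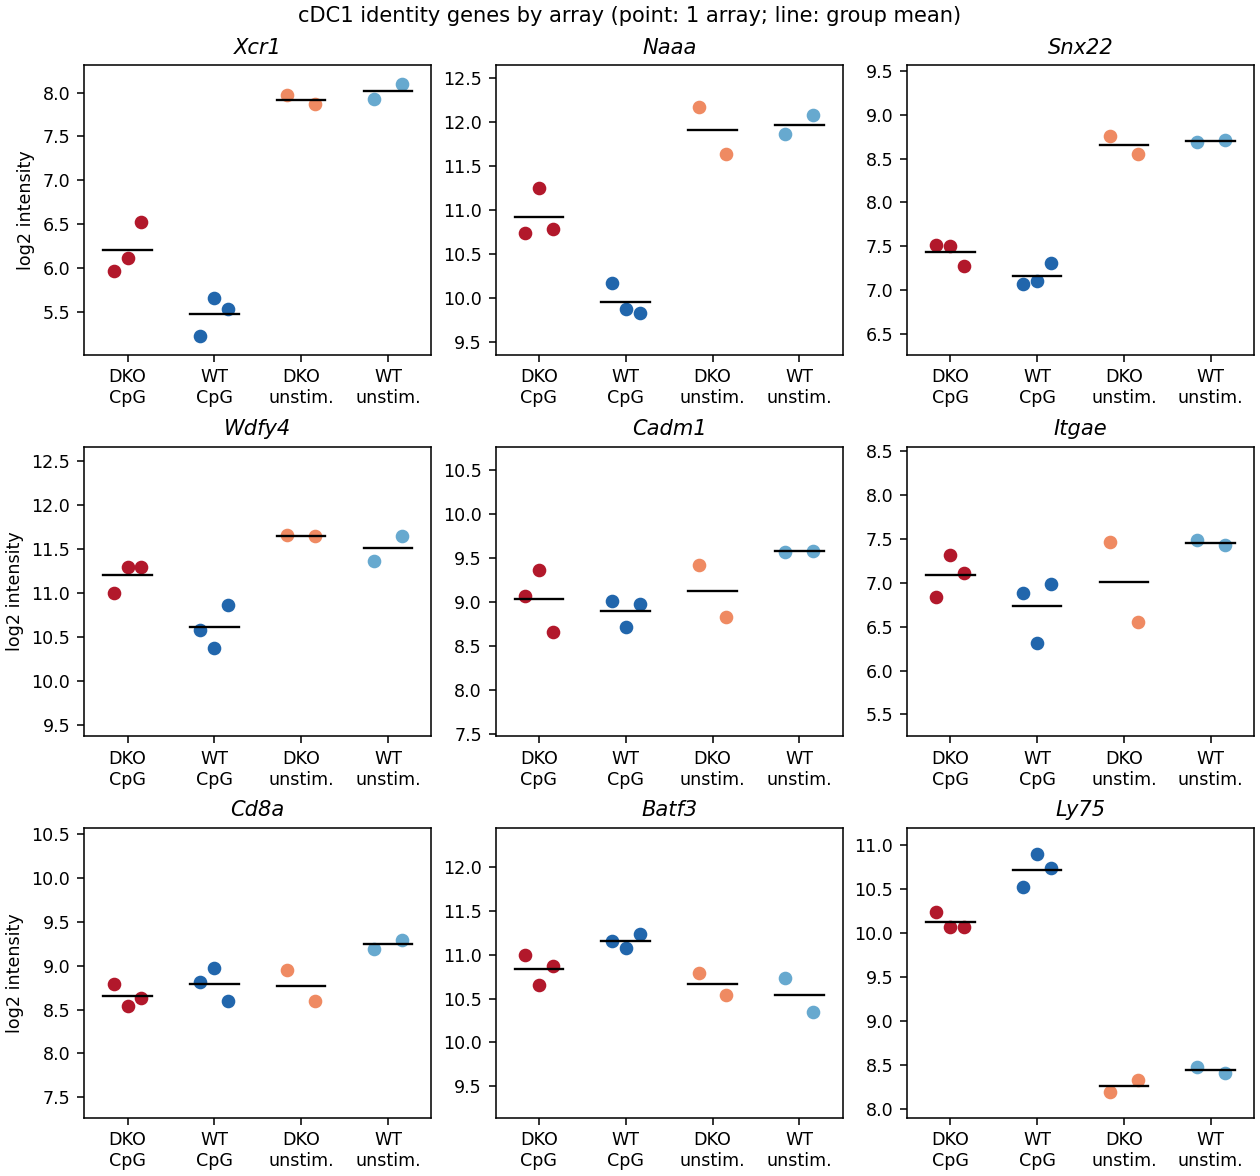
Log2 intensity (vertical axis) of the 9 measured cDC1 identity genes, 1 panel per gene, with 1 point per array and a bar at each group mean. Within each genotype the CpG arrays stand left of the unstimulated ones: the Xcr1, Naaa and Snx22 points are lower after CpG in both genotypes, and the Ly75 points are higher.

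Among the surface receptors, Xcr1, the receptor for the chemokine Xcl1, measured 5.23, 5.66 and 5.54 in WT CpG DCs, against 7.93 and 8.10 in WT unstimulated DCs. All 3 CpG arrays were far below both unstimulated arrays, and their Xcr1 values lay around the array medians (5.56, 5.52 and 5.53). Xcr1 fell by 2.54 ± 0.18 and measured 5.81-fold lower in WT CpG DCs (adjusted p = 4.45e-05). No detection calls were used, so the WT CpG level may be near background, and the fold may then understate the change. Ly75, the endocytic receptor DEC-205 that delivers bound antigen for presentation, went the other way, with 10.52, 10.90 and 10.74 in WT CpG DCs and 8.48 and 8.41 in WT unstimulated DCs. It rose by 2.28 ± 0.13, or 4.85-fold (adjusted p = 2.65e-05). Ly75 is also carried by other DCs once they mature. Cd8a, which mouse splenic cDC1 carry as a homodimer, measured 8.81, 8.97 and 8.60 in WT CpG DCs, against 9.19 and 9.29 in WT unstimulated DCs. The groups did not overlap, but the difference of -0.45 (95% interval -0.78 to -0.11) did not pass (adjusted p = 0.0607).

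Of the adhesion molecules, Cadm1, a cell adhesion protein that binds Crtam on activated T cells, measured 9.01, 8.71 and 8.97 in WT CpG DCs, against 9.57 and 9.58 in WT unstimulated DCs. It fell by 0.68 ± 0.22, just inside the threshold (adjusted p = 0.0483), and the call was lost in 7 of the 23 alternatives tried, among them the one without a filter on low values. Itgae, the integrin alpha chain CD103 that pairs with Itgb7 to bind E-cadherin, measured 6.89, 6.32 and 6.99 in WT CpG DCs, against 7.48 and 7.43 in WT unstimulated DCs. Its difference of -0.72 (95% interval -1.32 to -0.12) did not pass (adjusted p = 0.0852).

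Among the genes of the endosome and lysosome, Naaa, a lysosomal amidase that breaks down fatty acid ethanolamides, measured 10.17, 9.87 and 9.82 in WT CpG DCs, against 11.87 and 12.08 in WT unstimulated DCs. It fell by 2.02 ± 0.20, so it was 4.06-fold lower after CpG (adjusted p = 1.60e-04). Snx22, a sorting nexin with a lipid-binding PX domain, measured 7.07, 7.10 and 7.31 in WT CpG DCs, against 8.69 and 8.71 in WT unstimulated DCs. The replicates of each group lay close together, and Snx22 fell by 1.54 ± 0.13 (adjusted p = 7.54e-05). Wdfy4, which cDC1 require for cross-presentation of cell-associated antigen, measured 10.58, 10.37 and 10.87 in WT CpG DCs, against 11.37 and 11.65 in WT unstimulated DCs. It fell by 0.90 ± 0.16 (adjusted p = 0.00366), a call that was lost without WT unstimulated 2 (adjusted p = 0.0518).

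Batf3, the AP-1 family transcription factor on which cDC1 development depends, measured 11.16, 11.07 and 11.24 in WT CpG DCs, against 10.74 and 10.34 in WT unstimulated DCs. It rose by 0.61 ± 0.16 (adjusted p = 0.0174), while Xcr1, Naaa and Snx22 fell. The rise did not pass without WT CpG 3 (adjusted p = 0.0522) or without WT unstimulated 2 (adjusted p = 0.184). The values of all 9 genes were free of overlap between WT CpG and WT unstimulated DCs, which was so for 52.4% of all tested genes.

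In DKO DCs the same question gave fewer calls, with 3 of the 9 genes lower after CpG (Xcr1, Snx22 and Naaa) and 1 higher (Ly75). Of all tested genes, 5.76% fell and 4.54% rose in this comparison. The median difference over the 9 genes was -0.12, against -0.04 over all tested genes. CpG and unstimulated DKO values were free of overlap for 5 of the 9 genes, and for 37.7% of all tested genes.

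Xcr1 measured 5.97, 6.12 and 6.53 in DKO CpG DCs, against 7.97 and 7.87 in DKO unstimulated DCs. It fell by 1.71 ± 0.18, or 3.28-fold (adjusted p = 6.21e-04). Snx22 measured 7.52, 7.51 and 7.28 in DKO CpG DCs, against 8.76 and 8.56 in DKO unstimulated DCs, and fell by 1.22 ± 0.13 (adjusted p = 6.32e-04). Both genes kept a clear gap between the groups. Naaa measured 10.74, 11.25 and 10.78 in DKO CpG DCs, against 12.18 and 11.64 in DKO unstimulated DCs. It fell by 0.99 ± 0.20 (adjusted p = 0.0137). This call was lost in 3 of the 23 alternatives, among them the one with only the 2 DKO groups fitted (adjusted p = 0.0722). The others left DKO unstimulated 2 alone in its group. The difference was then -0.72 without DKO unstimulated 1 and -0.86 without the 3 arrays with Y-linked signal. Ly75 measured 10.24, 10.07 and 10.07 in DKO CpG DCs, against 8.19 and 8.32 in DKO unstimulated DCs, and rose by 1.87 ± 0.13, or 3.65-fold (adjusted p = 1.41e-04).

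The other 5 genes did not pass in DKO DCs. Wdfy4 measured 10.998, 11.30 and 11.30 in DKO CpG DCs, against 11.66 and 11.65 in DKO unstimulated DCs, a difference of -0.45 (95% interval -0.82 to -0.09, adjusted p = 0.112). The groups did not overlap for Wdfy4, whereas for the remaining 4 they did. Batf3 measured 10.99, 10.65 and 10.87 in DKO CpG DCs, against 10.79 and 10.54 in DKO unstimulated DCs, a difference of 0.18 (95% interval -0.17 to 0.52, adjusted p = 0.551). Cadm1 measured 9.07, 9.36 and 8.66 in DKO CpG DCs, against 9.42 and 8.83 in DKO unstimulated DCs. Itgae measured 6.84, 7.32 and 7.11 in DKO CpG DCs, against 7.47 and 6.55 in DKO unstimulated DCs. For both adhesion genes the 2 unstimulated DKO arrays lay on either side of most CpG arrays. Cd8a measured 8.79, 8.54 and 8.63 in DKO CpG DCs, against 8.95 and 8.59 in DKO unstimulated DCs, and its difference was -0.12 (95% interval -0.46 to 0.22). The difference was -0.10 for Cadm1 (95% interval -0.58 to 0.39) and 0.08 for Itgae (95% interval -0.52 to 0.68).

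**Figure D2:**
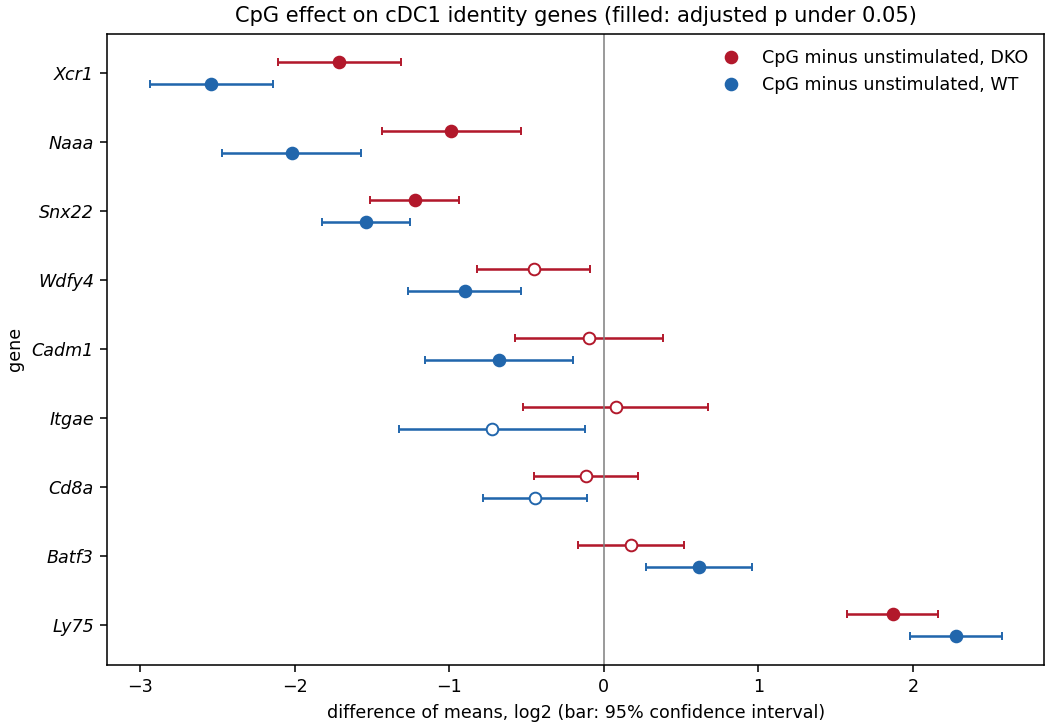
CpG minus unstimulated log2 difference (horizontal axis) with its 95% interval for each gene (vertical axis), in DKO and in WT DCs; filled points passed at an adjusted p under 0.05 and open points did not. Xcr1, Naaa and Snx22 lie left of 0 and Ly75 right of 0 in both genotypes, with Xcr1 at -1.71 in DKO and -2.54 in WT.

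The stretches before the start sites of the 3 genes with the largest CpG differences in WT DCs are shown because these genes carry the result: Xcr1 and Naaa, which fell, and Ly75, which rose. For Cd8a a stretch is shown because it alone held a motif searched for. The sequences are RefSeq's (build GRCm38.p6), read 5′ to 3′ on the gene's strand, and end at the base before the start for the first 3. Capitals mark matches to a motif, of which the first 3 have none.
Xcr1 chr9:123862030-123862279 (- strand): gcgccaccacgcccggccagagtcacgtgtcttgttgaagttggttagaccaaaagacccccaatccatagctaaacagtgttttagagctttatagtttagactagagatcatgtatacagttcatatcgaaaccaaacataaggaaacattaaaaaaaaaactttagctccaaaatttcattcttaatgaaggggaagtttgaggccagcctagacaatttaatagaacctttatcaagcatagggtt
Naaa chr5:92278182-92278431 (- strand): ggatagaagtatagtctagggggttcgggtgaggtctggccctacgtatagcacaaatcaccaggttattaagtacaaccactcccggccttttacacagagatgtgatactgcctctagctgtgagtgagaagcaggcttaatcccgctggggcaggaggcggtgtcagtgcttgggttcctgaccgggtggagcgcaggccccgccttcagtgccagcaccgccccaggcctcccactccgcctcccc
Ly75 chr2:60383274-60383523 (- strand): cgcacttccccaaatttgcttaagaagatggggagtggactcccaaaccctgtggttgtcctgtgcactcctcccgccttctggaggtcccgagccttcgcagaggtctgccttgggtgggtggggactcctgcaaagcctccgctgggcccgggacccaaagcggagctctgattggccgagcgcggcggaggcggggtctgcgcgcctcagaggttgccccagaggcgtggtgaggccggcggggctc
Cd8a chr6:71373257-71373316 (+ strand): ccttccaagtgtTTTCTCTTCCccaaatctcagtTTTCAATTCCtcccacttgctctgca

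Promoter windows from 250 bases before to 50 after the start were in the table for 8 of the 10 listed genes. They were searched on both strands for 3 motifs: the AP-1 site TGANTCA, the interferon-stimulated response element (GAAA, any 2 bases, GAAA) and the ETS-IRF composite element (GGAA, any 2 bases, GAAA). Across 32851 promoter windows of the same length, 7.81%, 3.44% and 2.72% held these motifs, in that order. The windows of 7 of the 8 genes held none of them. The Cd8a window held the ETS-IRF motif at 2 places, both on the opposite strand, starting 158 and 136 bases before the start. A match is a description of letters, not a binding site.

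Whether the receptors alter these genes was asked by setting DKO beside WT DCs. After CpG, none of the 9 genes passed, where 0.120% of all tested genes (16) did. Xcr1 averaged 6.21 ± 0.29 log2 units in DKO CpG DCs and 5.47 ± 0.22 in WT CpG DCs (SD, n = 3 each), a difference of 0.73 (95% interval 0.38 to 1.09, adjusted p = 0.0834). Naaa averaged 10.92 ± 0.29 in DKO CpG DCs and 9.95 ± 0.19 in WT CpG DCs, a difference of 0.97 (95% interval 0.57 to 1.37, adjusted p = 0.0623). All 3 DKO CpG arrays lay above all 3 WT CpG arrays for these 2 genes and for Wdfy4, and below them for Ly75 and Batf3.

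Ly75 averaged 10.12 ± 0.10 in DKO CpG DCs and 10.72 ± 0.19 in WT CpG DCs, a difference of -0.60 (95% interval -0.86 to -0.33, adjusted p = 0.0687). The difference was 0.59 for Wdfy4 (95% interval 0.27 to 0.92, adjusted p = 0.105) and -0.32 for Batf3 (95% interval -0.62 to -0.01, adjusted p = 0.330). The 2 genotypes did not overlap for these 5 genes of 9, against 19.2% of all tested genes. Unadjusted p-values were under 0.05 for 6 of the 9, against 14.3% of all tested genes. The remaining 4 were Snx22 at 0.27, Itgae at 0.36, Cadm1 at 0.13 and Cd8a at -0.14, with adjusted p-values of 0.315 to 0.825.

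Marker levels of other cells also differed among the CpG arrays. The median of 11 neutrophil markers, centred per gene, was 0.10, -0.07 and -1.74 in DKO CpG DCs, against 1.86, 2.05 and -0.06 in WT CpG DCs. All 11 markers were lower on average in DKO CpG DCs, though none passed. With the neutrophil level in the model the difference was 0.51 ± 0.21 for Xcr1 (adjusted p = 0.456) and 1.16 ± 0.25 for Naaa (adjusted p = 0.175). It was -0.56 ± 0.18 for Ly75 (adjusted p = 0.296) and 0.35 ± 0.19 for Wdfy4 (adjusted p = 0.594). Without the covariate these standard errors were 0.16, 0.18, 0.12 and 0.15, in that order. A larger adjusted p here therefore does not by itself mean a smaller difference. For Batf3 the difference with the covariate was -0.43, for Cadm1 0.30, for Itgae 0.12, for Snx22 0.27 and for Cd8a 0.05. The median of 13 splenic macrophage markers was 0.37, 0.44 and -1.28 in DKO CpG DCs, against 0.06, 0.05 and 0.34 in WT CpG DCs. Leaving out the 3 arrays with Y-linked signal left DKO CpG 3 as the only DKO CpG array, so no test is given. The DKO minus WT difference after CpG was then 1.05 for Xcr1 and 0.83 for Naaa. Without DKO CpG 3 and DKO unstimulated 2, the arrays low in macrophage markers, none passed, with Xcr1 at 0.57 (adjusted p = 0.140) and Naaa at 1.04 (adjusted p = 0.0656). Without DKO CpG 1, 3 of the 9 genes and 267 of all tested genes passed.

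Sample titles numbered under 20 and those numbered 20 and over were also taken as separate series. The labels mention a first batch without assigning samples to it. Among DKO arrays, those numbered 20 and over were DKO unstimulated 2 and DKO CpG 3. The same arrays were the DKO arrays without Y-linked signal and those low in splenic macrophage and NK cell markers. Within DKO these traits cannot be told apart. Under 20, DKO CpG 1 and 2 had Y-linked signal and WT CpG 1 and 2 did not. In the other series, macrophage markers were at -1.28 in DKO CpG 3 and 0.34 in WT CpG 3. Genotype therefore coincides with another trait in each series. For Xcr1 the DKO minus WT difference after CpG was 0.60 in the series under 20 and 0.99 in the other. For Naaa it was 0.97 and 0.96, for Ly75 -0.56 and -0.67, and for Wdfy4 0.67 and 0.44. The second series holds 1 array per group here, so these are values without a test. It kept its sign for Batf3 (-0.29 and -0.37) and Itgae (0.47 and 0.12) too. The sign differed between the series for Cadm1 (0.35 and -0.31), Snx22 (0.43 and -0.03) and Cd8a (-0.23 and 0.03). With the title series as a block in the model, 3 of the 9 genes passed between DKO and WT DCs after CpG: Naaa at 0.97 (adjusted p = 0.0196), Xcr1 at 0.73 (adjusted p = 0.0388) and Ly75 at -0.60 (adjusted p = 0.0388). That model called 296 of all tested genes, in place of 16. It does not separate genotype from Y-linked signal or marker level.

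Without stimulation, no gene of the 9 passed between DKO and WT DCs, where 0.00748% of all tested genes (1) did. The differences ran between -0.47 for Cd8a (95% interval -0.84 to -0.10) and 0.14 for Wdfy4 (95% interval -0.26 to 0.54), with adjusted p-values of 0.992 to 0.997. Xcr1 measured 7.97 and 7.87 in DKO unstimulated DCs, against 7.93 and 8.10 in WT unstimulated DCs, a difference of -0.09 (95% interval -0.53 to 0.34). Values were free of overlap for 3 of the 9 genes (Cadm1, Ly75 and Cd8a), which was so for 34.2% of all tested genes. The unadjusted p was under 0.05 for 1 of them, Cd8a. The 2 DKO unstimulated arrays stood apart from each other for several genes: Cadm1 was 9.42 and 8.83, Itgae 7.47 and 6.55, and Naaa 12.18 and 11.64. DKO unstimulated 2, the array with the lower values, was also low in splenic macrophage markers. Their median was -1.10 there, against 0.34 in DKO unstimulated 1. The mean of Y-linked genes was 3.39 and 7.93 in these arrays. With a macrophage marker covariate, 0 of the 9 genes and 5 of all tested genes passed between the unstimulated genotypes. Whether marker level or Y-linked signal accounts for the differences between these 2 arrays was not tested.

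**Figure D3:**
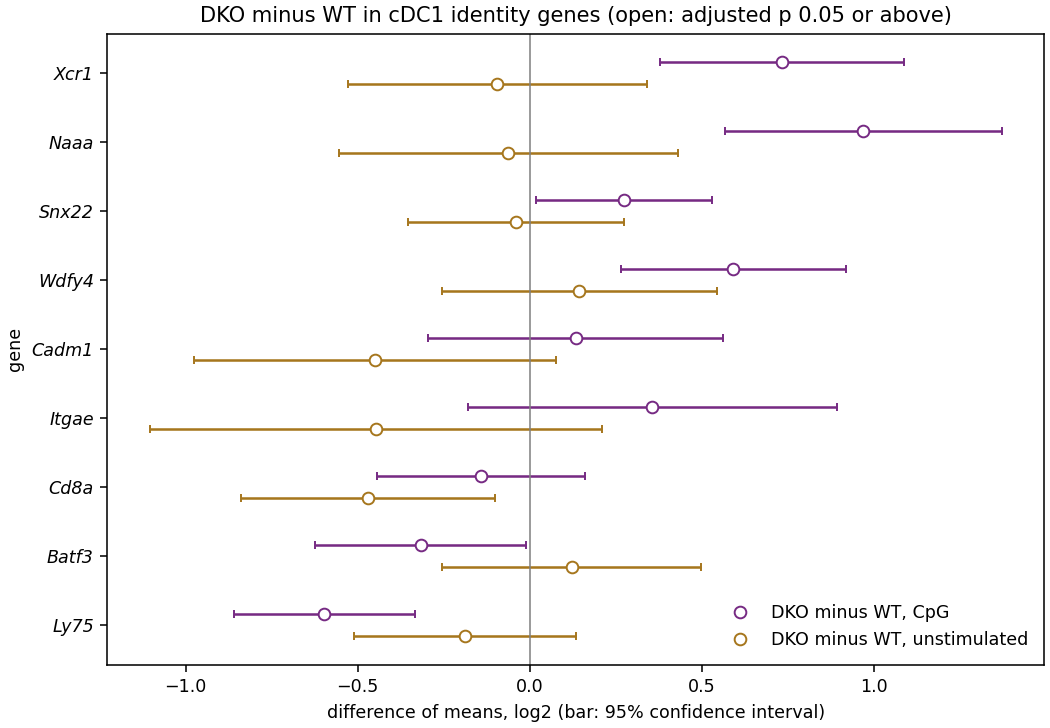
DKO minus WT log2 difference (horizontal axis) with its 95% interval for each gene (vertical axis), after CpG and without stimulation; all points are open because none passed at an adjusted p under 0.05. After CpG, Naaa at 0.97 and Xcr1 at 0.73 lie right of 0 and Ly75 at -0.60 lies left.

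The difference between the CpG effects, DKO minus WT, was tested as an interaction. None of the 9 genes passed, where 0.00748% of all tested genes (1) did. The largest were 1.03 ± 0.29 for Naaa (95% interval 0.40 to 1.67) and 0.83 ± 0.25 for Xcr1 (95% interval 0.27 to 1.39), both at an adjusted p of 0.761. The Xcr1 values here and between the genotypes after CpG rest on the WT CpG level near the array median, which may limit the measured fall in WT DCs. Unadjusted p-values were under 0.05 for these 2 genes only, against 5.65% of all tested genes. In size the CpG difference was larger in WT than in DKO DCs for 9 of the 9 genes. Both had the same sign for 8 of them, Itgae being the exception. Neither share was counted over all tested genes, of which CpG called 2885 in WT and 1377 in DKO DCs. A larger difference in WT DCs is therefore not shown to be particular to these genes. The DKO and WT differences share no arrays, but their tests and intervals use the same spread per gene, estimated over all 4 groups. These tests are therefore not independent.

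Other genes of cDC1 gave the surroundings of these changes. Of 20 further cDC1-associated genes, 6 fell and 3 rose after CpG in DKO DCs, with a median difference of -0.37. In WT DCs 11 fell and 4 rose, with a median of -1.01. Among all tested genes, 5.76% fell and 4.54% rose in DKO DCs, and 13.3% fell and 8.24% rose in WT DCs. The counts for the lists that follow are to be read beside these shares too. The 6 that fell in DKO DCs also fell in WT DCs, and the 3 that rose in DKO DCs also rose in WT DCs. All 20 had the same sign in both genotypes, a share that was not counted over all tested genes. None of the 20 passed between the genotypes.

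**Figure D4:**
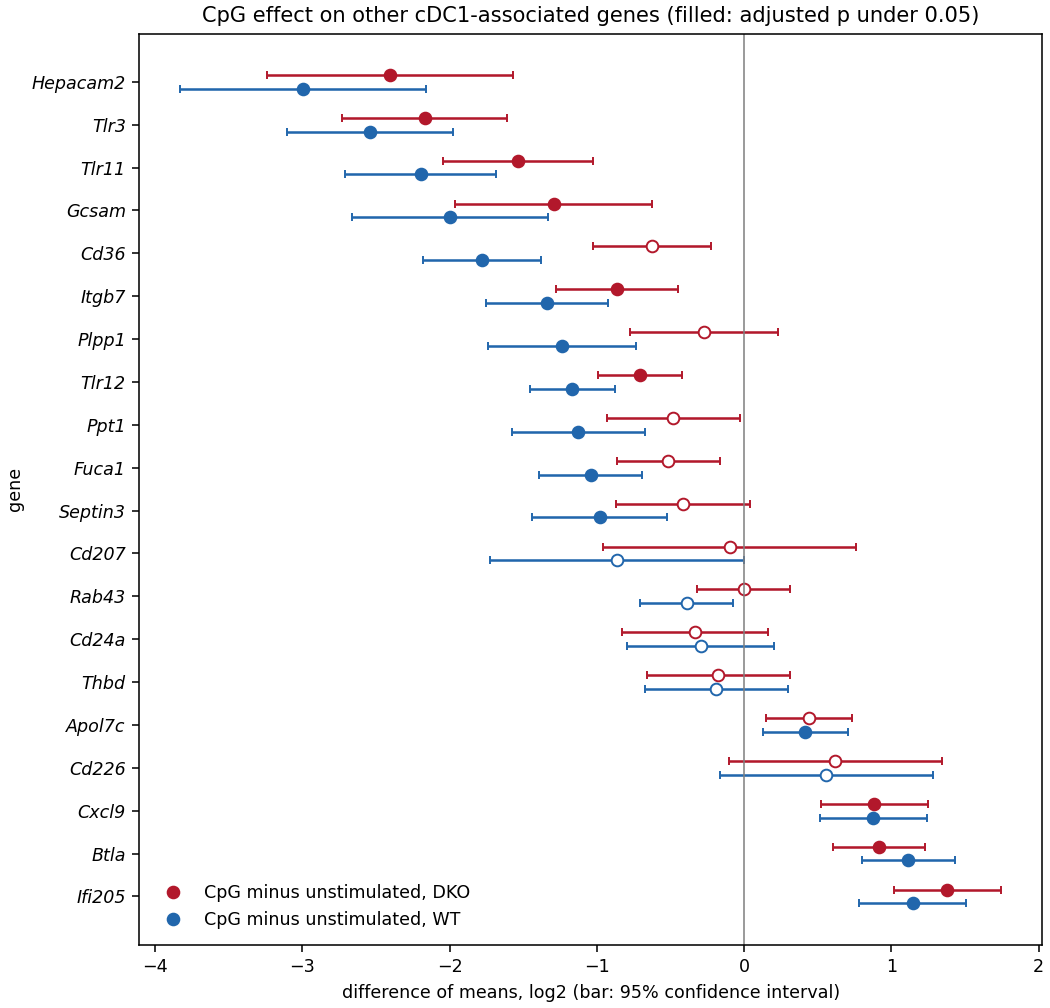
CpG minus unstimulated log2 difference for 20 further cDC1-associated genes in DKO and in WT DCs, with 95% intervals; filled points passed at an adjusted p under 0.05 and open points did not. Tlr3 lies at -2.17 in DKO and -2.54 in WT, and Ifi205 at 1.38 in DKO and 1.15 in WT.

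Tlr3, the endosomal sensor of double-stranded RNA, measured 7.51, 7.52 and 7.68 in DKO CpG DCs, against 9.90 and 9.59 in DKO unstimulated DCs. It measured 7.52, 6.85 and 7.94 in WT CpG DCs, against 10.06 and 9.89 in WT unstimulated DCs. It fell by 2.17 ± 0.25 in DKO DCs (adjusted p = 9.80e-04) and fell by 2.54 ± 0.25 in WT DCs (adjusted p = 1.60e-04). Tlr11 and Tlr12, which together sense profilin of Toxoplasma, fell by 1.54 and 0.71 in DKO DCs and fell by 2.20 and 1.17 in WT DCs. All 3 receptors therefore passed in both genotypes. Cd36, a scavenger receptor, had a difference of -0.63 ± 0.18 in DKO DCs (adjusted p = 0.0536) and fell by 1.78 ± 0.18 in WT DCs (adjusted p = 1.67e-04). Ifi205, an interferon-inducible gene, rose by 1.38 in DKO DCs and by 1.15 in WT DCs. Btla, an inhibitory receptor, rose by 0.92 in DKO DCs and by 1.12 in WT DCs.

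The transcription factors listed for the lineage did not move as one group. Of 13 tested, 3 rose and 3 fell in each genotype, and the median difference was 0.17 in DKO and 0.18 in WT DCs. The list is not confined to cDC1: Irf4, which fell by 0.82 in DKO DCs and did not pass in WT DCs, is also counted among the cDC2 markers. Irf8, on which cDC1 depend, measured 10.28, 10.19 and 10.05 in DKO CpG DCs, against 11.35 and 10.82 in DKO unstimulated DCs. It measured 10.18, 10.17 and 9.95 in WT CpG DCs, against 11.34 and 11.50 in WT unstimulated DCs, so that the groups did not overlap in either genotype. It fell by 0.91 ± 0.16 in DKO DCs (adjusted p = 0.00751) and fell by 1.32 ± 0.16 in WT DCs (adjusted p = 4.04e-04). Batf, the paralogue of Batf3, rose by 2.12 ± 0.24 in DKO DCs and by 2.41 ± 0.24 in WT DCs. Etv6, a repressor of the ETS family, rose by 0.58 in DKO DCs and by 0.78 in WT DCs. Id2, an inhibitor of E proteins that cDC1 need, rose by 0.78 in DKO DCs and by 0.48 in WT DCs. Cebpa did not pass in DKO DCs, with a difference of -0.49 (adjusted p = 0.119), and fell by 0.89 in WT DCs (adjusted p = 0.00588).

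Of 7 partners and ligands of the 10 genes, 2 fell and none rose in each genotype. Itgb7, the partner chain of Itgae, measured 7.28, 7.65 and 7.92 in DKO CpG DCs, against 8.61 and 8.34 in DKO unstimulated DCs. It measured 6.92, 6.68 and 7.08 in WT CpG DCs, against 8.24 and 8.23 in WT unstimulated DCs. Itgb7 fell by 0.86 ± 0.19 in DKO DCs (adjusted p = 0.0172) and fell by 1.34 ± 0.19 in WT DCs (adjusted p = 7.69e-04), while Itgae passed in neither. Irf8 was the other that fell. Xcl1, the ligand of Xcr1, ranged widely among the arrays: 10.15, 9.63 and 8.19 in DKO CpG DCs, 9.24 and 7.48 in DKO unstimulated DCs, 10.01, 9.81 and 9.73 in WT CpG DCs, and 8.97 and 8.87 in WT unstimulated DCs. Its lowest values were in DKO unstimulated 2 and DKO CpG 3, the arrays lowest in NK cell markers, a list that includes Xcl1. The CpG difference of Xcl1 was 0.96 ± 0.55 in DKO DCs (adjusted p = 0.317) and 0.93 ± 0.55 in WT DCs (adjusted p = 0.279), so neither passed. Cd8b1, which pairs with Cd8a on T cells, did not pass in either genotype, with differences of -0.18 in DKO and 0.14 in WT DCs.

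Cross-presentation machinery held 15 tested genes, of which none passed in DKO DCs, while 4 rose and none fell in WT DCs. Cybb, a subunit of the phagosomal oxidase, had a difference of 0.34 in DKO DCs (adjusted p = 0.142) and rose by 0.61 in WT DCs. Rab27a, a small GTPase of vesicle transport, had a difference of 0.31 in DKO DCs and rose by 0.77 in WT DCs. The peptide transporter gene Tap1 had a difference of 0.47 in DKO DCs and rose by 0.66 in WT DCs, and Tapbp, which bridges it to MHC class I, had 0.52 in DKO DCs and rose by 0.59 in WT DCs. The difference between the genotypes was not called for any of the 15. Of 11 core markers of conventional DCs, 2 fell and 1 rose in DKO DCs, and 4 fell and 2 rose in WT DCs. Itgax, which encodes the CD11c by which the cells were selected, measured 11.23, 11.49 and 11.59 in DKO CpG DCs, against 11.89 and 11.85 in DKO unstimulated DCs. It measured 10.91, 10.72 and 11.09 in WT CpG DCs, against 11.58 and 11.75 in WT unstimulated DCs. The difference was -0.44 ± 0.15 in DKO DCs (adjusted p = 0.0915), and Itgax fell by 0.76 ± 0.15 in WT DCs (adjusted p = 0.00494). Traf1, a signalling adaptor, rose by 0.69 in DKO DCs and by 0.89 in WT DCs. In WT DCs Kmo, an enzyme of tryptophan breakdown, rose by 0.92, and Flt3, the cytokine receptor that DC development needs, fell by 0.48.

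**Figure D5:**
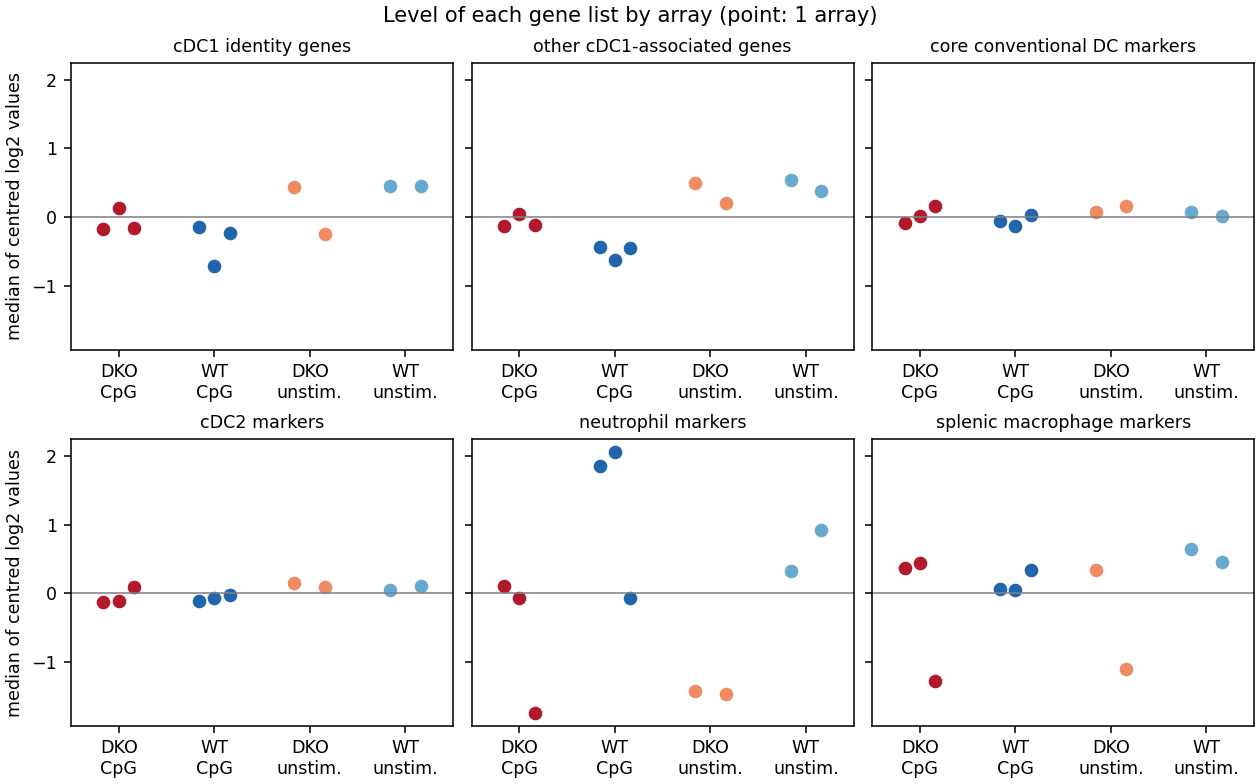
Median of each gene list per array, centred per gene over the 10 arrays (log2 scale), for the 9 measured cDC1 identity genes and for other lists; 1 point per array in the 4 groups. The 9 genes lie between -0.18 and 0.12 in DKO CpG, between -0.72 and -0.15 in WT CpG, at -0.24 and 0.43 in DKO unstimulated, and at 0.45 and 0.46 in WT unstimulated arrays.

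The genes that varied most like Xcr1 and Ly75 over the 10 arrays were named by Pearson's r. For Xcr1 they were Trim8, Trpv2, Lrrk2, Stk10 and Dusp6, with r of 0.985 to 0.992. For Ly75 they were Cd274, Cd69, Pfkfb3, Rab8b and Ccr7, with r of 0.991 to 0.996. The r values include the difference between CpG and unstimulated arrays, which is large for Xcr1 and Ly75, and no p is given. Of the 5 nearest to Xcr1, Lrrk2, a kinase with a GTPase domain, fell by 1.99 in DKO DCs and fell by 2.71 in WT DCs. Of the 5 nearest to Ly75, Ccr7, the chemokine receptor that takes DCs into T cell zones, rose by 1.14 in DKO DCs and by 1.41 in WT DCs. After each group's mean was subtracted, the strongest r among the 9 genes were 0.79 between Cadm1 and Naaa and 0.75 between Cadm1 and Snx22. They were taken over the same 10 arrays with 4 means removed. Cadm1 varied more in DKO CpG (SD 0.35) and DKO unstimulated arrays (0.41) than in WT CpG (0.16) and WT unstimulated arrays (0.003). These r therefore rest more on the DKO arrays, which also differ in Y-linked signal and marker levels. No r was taken within 1 genotype.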

How the data were processed

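Expression was measured on 10 arrays, 1 per sample, in 4 groups. The authors deposited 1 log2 intensity for each probe set and array. The submitters' processing notes name RMA and Affymetrix Expression Console. For versions and genome build, the sources used here give nothing. On batches, the labels mention only a first one, without assigning samples to it. RMA corrects background, brings arrays to a common distribution and summarises probes. Column medians were 5.50 to 5.56. Depth does not apply to arrays, and the number of arrays limits the precision.

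Of 41345 probe sets, 23521 had 1 gene symbol, 1814 several and 16010 none, and only the first were named, through the platform annotation (23328 also matched the RefSeq gene table by gene ID). Genes with several probe sets (1082) took the one with the highest mean. A gene was tested if above the array median in at least 2 of 10 arrays. limma 3.58.1 (lmFit, eBayes) in R 4.3.3 fitted 4 group means over all arrays with 6 residual degrees of freedom. Tests were two-sided, intervals are 95%, and the script was tested on simulated data.

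The 10 members and all lists (14 of other genes) were chosen with earlier results of these data known, so no list is independent support. Genes named were the members, C3ar1 and C5ar1, Itgb7, Cd8b1, Irf8, Tlr3, Itgax, Xcl1 and all tested B cell markers. Also named were up to 4 members of each other list with the smallest p among those called. The 5 nearest genes of Xcr1 and Ly75 were named too. The alternatives were other filters, probe set rules, array weights, moderation, blocks, covariates and arrays left out.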

Additional observations from a re-analysis of the deposited data

How the results depend on the processing

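The calls for Xcr1, Snx22 and Ly75 held under all 23 alternatives in both genotypes, and that for Naaa in WT DCs did too. Leaving out 1 array at a time gave 4 to 9 of the 9 genes called for CpG in WT DCs, with 4 without WT unstimulated 2, while calls over all tested genes ran from 1277 to 3226. It gave 3 to 4 for CpG in DKO DCs (423 to 1909 of all), 0 to 3 for DKO minus WT after CpG (2 to 267 of all), with 3 without DKO CpG 1, 0 for DKO minus WT without stimulation and 0 for the interaction. DKO minus WT after CpG had 0 genes called and 16 of all tested genes. It had 3 with the title series as a block (296 of all), 3 with a Y-linked covariate (800) and 2 with a trended and robust prior (76). It had 1 with array weights (125) and 1 with a macrophage marker covariate (154). With a neutrophil covariate it had 0 (2 of all). DKO minus WT without stimulation had 1 gene called with a Y-linked covariate, Cadm1 at -0.75 (adjusted p = 0.0391), and 407 of all tested genes in place of 1. The cause of these shifts was not tested. Among DKO arrays, Y-linked signal, macrophage marker level and title series split the arrays alike and cannot be told apart. For CpG in WT DCs, Cd8a was called in 9 and Itgae in 7 of the 23 alternatives. For CpG in DKO DCs all tested genes called fell to 402 with only those 2 groups fitted, in place of 1377. Leaving out the arrays with Y-linked signal left DKO CpG 3 and DKO unstimulated 2 alone in their groups, so its counts are not given. Without the arrays with Y-linked signal and without those low in macrophage markers were chosen after seeing the data. No paired analysis was possible because the labels carry no replicate numbers shared across the groups. Groups of 2 and 3 arrays limit the precision, and values near the array median may be near background.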

Other observations

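Some markers of other cells in the isolate were also called after CpG. Among all tested genes, 5.76% fell and 4.54% rose in DKO DCs, and 13.3% fell and 8.24% rose in WT DCs. Of 15 tested cDC2 markers, 2 fell and none rose in each genotype, which in WT DCs was near the share of all tested genes. They were Cd209a and Irf4 in DKO DCs, and Cd209a and Notch2 in WT DCs. Irf4 was also counted among the transcription factors above. Cd209a, a C-type lectin, measured 8.05, 9.16 and 9.30 in DKO CpG DCs, against 10.20 and 9.90 in DKO unstimulated DCs. It measured 7.93, 7.60 and 7.80 in WT CpG DCs, against 9.71 and 9.84 in WT unstimulated DCs. It fell by 1.21 ± 0.30 in DKO DCs (limma, adjusted p = 0.0319) and fell by 2.00 ± 0.30 in WT DCs (adjusted p = 0.00125). Of 10 tested B cell markers, 3 fell in DKO DCs and 5 in WT DCs, and none rose. Cd22, an inhibitory receptor of B cells, fell by 1.39 in DKO DCs and fell by 1.44 in WT DCs. Bank1, a B cell scaffold protein, fell by 0.57 in DKO DCs and fell by 1.56 in WT DCs. In WT unstimulated DCs Cd22 averaged 8.71 and Bank1 10.06. Cd79b, Blk and Cr2, which also fell in WT DCs, averaged 6.76 to 7.64 there. Cd79a, Pax5, Ebf1, Fcer2a and Ms4a1 averaged 5.52 to 7.04 and were called in neither genotype. Whether the falls reflect B cells in the isolate was not tested. None of the 8 tested NK cell markers passed in either genotype, with median differences of 0.54 in DKO and 0.57 in WT DCs.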
